A study of Saccharomyces cerevisiae with 4 samples.

Results

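The genes described here are those of beta-1,3-glucan synthase in Saccharomyces cerevisiae: the catalytic subunit genes FKS1 (YLR342W), GSC2 (YGR032W, also called FKS2) and FKS3 (YMR306W), with SMI1 (YGR229C, also called KNR4), which is linked to the synthesis of wall glucan. They were taken by gene symbol, 4 genes of the 5539 named on the array, and each was printed as a pair of spots, 8 spots of 12800. Strain BY4741 was compared with itself, with and without Congo red, in a culture that was split after growth at 24 °C in rich medium. The dye was used at 30 µg/ml for 2 h. BY4741, a common haploid strain derived from S288C, is MATa and lacks HIS3, LEU2, MET17 and URA3, so treated and untreated cells carry the same deletions. There were 4 arrays with 2 channels each. Arrays 1 and 3 carried the treated RNA in channel 2, arrays 2 and 4 in channel 1. Whether each array had a culture of its own is not given, so the p-values measure the spread between arrays, which may be technical.

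Beta-1,3-glucan is the main load-bearing polymer of the yeast cell wall. A synthase in the plasma membrane makes it from UDP-glucose, and the small GTPase Rho1 is the regulatory subunit that switches the enzyme on. Fks1 is the main catalytic subunit in growing cells and the target of echinocandin antifungals, Gsc2 is the alternative subunit that is induced under wall stress, and Fks3 acts in the wall of the spore. Smi1 is a protein linked both to glucan synthase activity and to Slt2, the kinase of the cell wall integrity route. Congo red binds wall polysaccharides and disturbs their assembly.

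Values are log2 ratios per gene, the mean of its spots, with each array's median set to 0, so that 1 stands for a 2-fold ratio. The labels do not state which RNA is the numerator. The ratios are read as Congo red over untreated because all 7 tested markers of the Slt2-Rlm1 stress route, such as the wall protein genes NCW2 and PST1, lay above 0 on all 4 arrays, with a median of 1.95. Above 0 on all 4 arrays were also 9.54% of the 5124 genes with 4 values. These markers were listed with earlier results of these data known, so the count is not an independent test of the direction. The direction is therefore likely but not settled. The marker list also holds SLT2, which was not tested. The table holds no signal strengths, so no level of any gene can be given and no spot can be judged against its background.

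FKS1 had the highest mean ratio of the 4 genes in the direction read here. With the sign of arrays 2 and 4 turned, as if ratios ran by channel, FKS1 and FKS3 would be lowest, at -0.34 each. GSC2 would then be at 0.15 and SMI1 at 0.29. In that case all 7 tested markers would lie above 0 on arrays 1 and 3 and below 0 on arrays 2 and 4. If all arrays instead ran untreated over Congo red, every sign would turn and FKS1 would be the lowest of the 4. The values of FKS1 were 0.62, 1.26, 0.62 and 1.33 on arrays 1 to 4. All 4 arrays lay above 0, and arrays 2 and 4 stood at about the same height, well over arrays 1 and 3, which also lay together. The mean was 0.96 ± 0.20 (limma SE, n = 4), a ratio of 1.94-fold, with a 95% interval from 0.45 to 1.46. This put FKS1 at rank 260 of 5489 tested genes by mean and at rank 74 by p. It did not pass the threshold over all genes (limma adjusted p = 0.35), and an exact sign-flip permutation test gave p = 0.13, two-sided, the smallest that 4 arrays allow.

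GSC2, the stress-inducible subunit gene, came next. It was at 1.04, 0.74, 0.58 and 0.29 on arrays 1 to 4. Again all arrays lay above 0, but here array 1 was the highest and array 4, where FKS1 had its highest value, was the lowest. The mean was 0.66 ± 0.17 (limma SE, n = 4), a ratio of 1.58-fold, with a 95% interval from 0.21 to 1.11. GSC2 ranked 469 by mean and 132 by p, and it did not pass over all genes (limma adjusted p = 0.53; exact sign-flip p = 0.13). FKS1 and GSC2 are close paralogs, and RNA of one may have bound the spots of the other, so both values are uncertain to that extent.

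FKS3, the subunit gene of the spore wall, had no one direction. It was at -0.21, 0.56, -0.24 and 0.33 on arrays 1 to 4. Arrays 1 and 3 lay below 0 and arrays 2 and 4 above it. The mean was 0.11 ± 0.20 (limma SE, n = 4), with a 95% interval from -0.40 to 0.62, and the limma adjusted p was 0.88. The exact sign-flip permutation p was 0.625.

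SMI1 had the opposite arrangement of signs. It was at 0.23, -0.22, 0.34 and -0.37 on arrays 1 to 4. Arrays 1 and 3 lay above 0 and arrays 2 and 4 below it, and the mean was 0.00 ± 0.18 (limma SE, n = 4, limma adjusted p = 1.00). The 95% interval from -0.47 to 0.47 leaves room for a change of either sign (exact sign-flip permutation p = 1).

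**Figure D1:**
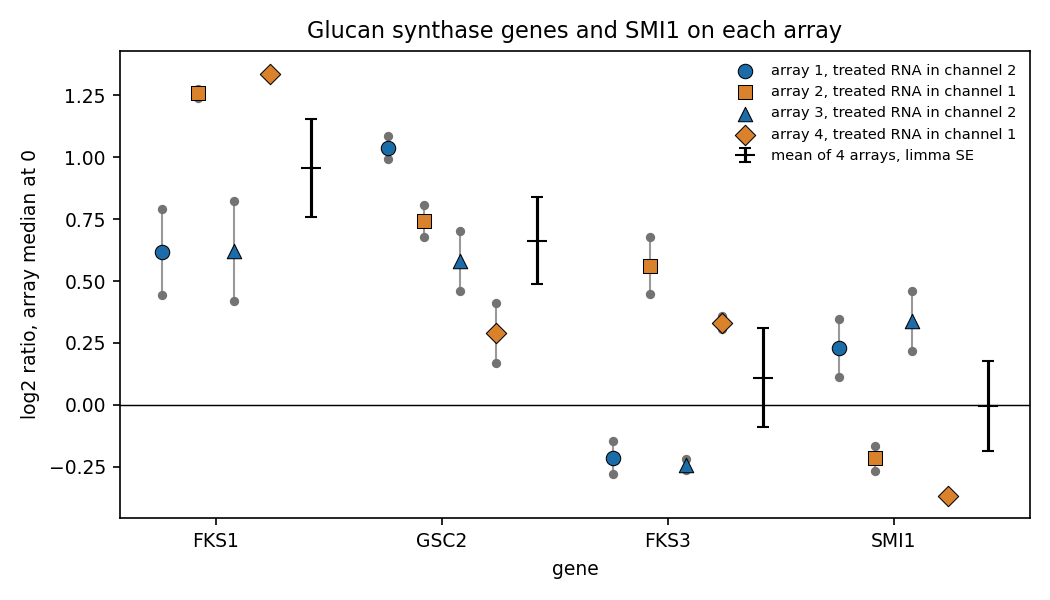
Log2 ratio (array median at 0) of FKS1, GSC2, FKS3 and SMI1 on each of the 4 arrays. Small grey points are the single spots, large symbols their mean, coloured by the channel of the treated RNA, and the bar is the mean of 4 arrays with limma's SE. FKS1 and GSC2 lie above 0 on all arrays, while FKS3 and SMI1 change side between arrays 1 and 3 and arrays 2 and 4.

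No member passed the limma threshold of 0.05 over all genes, where 5 of 5489 genes did, all above 0, which is 0.0911%. At an unadjusted p under 0.05, FKS1 and GSC2 were among the genes above 0 (limma unadjusted p = 0.0048 and 0.013), and 5.37% of all tested genes were called that way. GSC2 missed that level without centring and without array 1 (limma unadjusted p = 0.053 and 0.051). The same members, FKS1 and GSC2, were above 0 on each array, as were 9.54% of the 5124 genes with 4 values. The median of the 4 members was 0.39, beside -0.01 over all tested genes.

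Repeat spots give a measure of error within an array. The gap within a pair ran from 0.00 to 0.40 over the 16 pairs of members and arrays. The widest gaps were those of FKS1 on arrays 3 and 1, at 0.40 and 0.35. On arrays 2 and 4 the FKS1 spots were 0.04 and 0.02 apart. Over all genes printed as a pair, the median gap was 0.16, 0.25, 0.16 and 0.15 on arrays 1 to 4. The lower-valued FKS1 spot was at 0.42 on array 3, so both spots of FKS1 were above 0 on every array once the array medians were set to 0. Both spots of GSC2 were above 0 as well, the lowest at 0.17 on array 4. As deposited, before centring, the lower spots on array 3 were at -0.045 for FKS1 and -0.0029 for GSC2, where the array median was -0.46.

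Within each array the place of a gene among all others can be read without its size. FKS1 stood at the 80.3, 94.6, 84.4 and 98.7 percentiles of the genes on arrays 1 to 4. GSC2 stood at the 88.9, 88.6, 83.5 and 78.3 percentiles, a narrower span than that of FKS1. FKS3 moved between the 33.6 and 28 percentiles on arrays 1 and 3 and the 84.1 and 81.3 percentiles on arrays 2 and 4. SMI1 moved the other way, from the 63.3 and 72.9 percentiles on arrays 1 and 3 to the 36.4 and 16.5 percentiles on arrays 2 and 4.

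Genes measured on the same array can be set against each other, which removes any shift that both share. The ratio of FKS1 exceeded that of FKS3 by 0.83, 0.69, 0.86 and 1.00 on arrays 1 to 4. These differences lay close together, unlike the values of either gene. Their mean was 0.85 ± 0.13 (SD, n = 4), which is 1.80-fold. FKS1 was above SMI1 on all 4 arrays, by 0.28 to 1.70, with a mean of 0.96 ± 0.73 (SD, n = 4). GSC2 was also above SMI1 on all 4, by 0.24 to 0.96, with a mean of 0.67 ± 0.31 (SD, n = 4). Each of these differences reached the smallest exact permutation p that 4 arrays allow, 0.13, and 0.25 after adjustment over the 6 pairs compared, so none passed.

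The main subunit gene and the stress-inducible one were not separated. FKS1 minus GSC2 was -0.42, 0.52, 0.04 and 1.04 on arrays 1 to 4. FKS1 was the lower on array 1, about level on array 3 and the higher on arrays 2 and 4. The mean difference was 0.29 ± 0.63 (SD, n = 4; exact permutation p = 0.375, adjusted over the 6 pairs 0.45). It was 0.04 without array 4 and 0.53 without array 1. The arrays span differences of either sign, which does not show that the genes respond alike. GSC2 minus FKS3 ran from -0.04 to 1.25 with a mean of 0.55 (exact permutation p = 0.25), and FKS3 minus SMI1 ran from -0.58 to 0.78 with a mean of 0.11 (exact permutation p = 0.75).

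**Figure D2:**
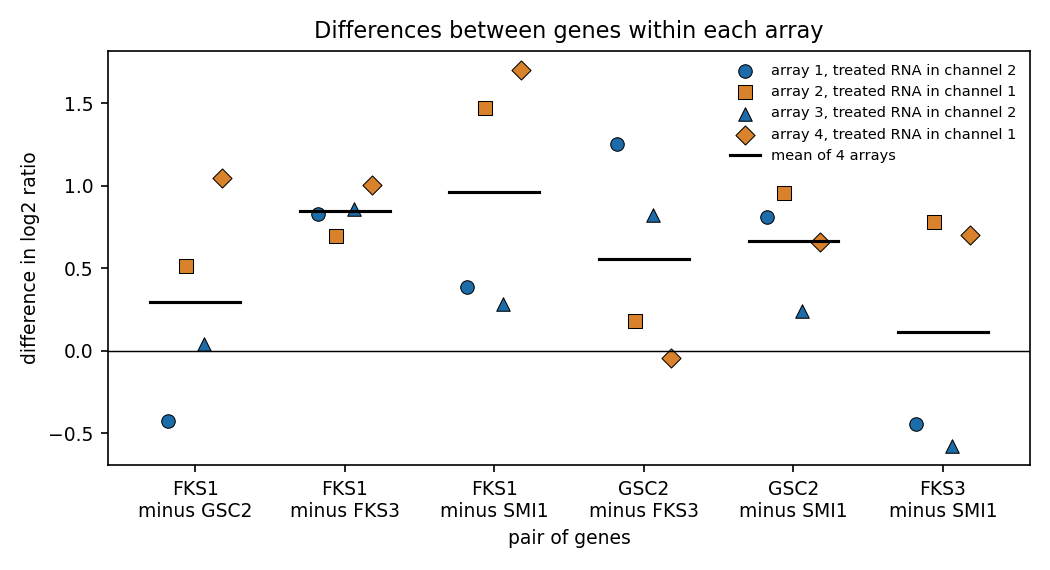
Difference in log2 ratio between members within each array, for the 6 pairs. Symbols are arrays 1 to 4, coloured by the channel of the treated RNA, and the bar is their mean. FKS1 minus FKS3 keeps to a narrow range, from 0.69 to 1.00, while FKS1 minus GSC2 runs from -0.42 to 1.04.

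In FKS1, FKS3 and SMI1 the arrays of one channel assignment did not overlap those of the other, which also held for 57.7% of the 5124 genes with 4 values. FKS1 averaged 0.62 on arrays 1 and 3 and 1.30 on arrays 2 and 4, a difference of -0.68 ± 0.20 (limma SE). FKS3 averaged -0.23 and 0.45, a difference of -0.67 ± 0.21, nearly the same as that of FKS1. SMI1 averaged 0.28 and -0.29, a difference of 0.58 ± 0.21 in the other direction. GSC2 averaged 0.81 and 0.52, and its difference of 0.29 ± 0.31 was within its error.

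Such differences were common over the whole array. At an unadjusted p under 0.05 the limma channel term called FKS1 and FKS3 (limma unadjusted p = 0.031 and 0.039) but not SMI1 (0.055) or GSC2 (0.40), and it called 912 of 5489 genes, or 16.6%. After adjustment it called 0% of genes, and the members had limma adjusted p from 0.27 to 0.61. FKS3 and SMI1 lay on one side of 0 on arrays 1 and 3 and on the other on arrays 2 and 4, as did 26.4% of the genes with 4 values. Arrays of like assignment resembled each other more than arrays of unlike assignment: over all genes, as a description, Spearman's rho was 0.60 for arrays 1 and 3 and 0.20 for arrays 2 and 4, and from -0.12 to -0.06 for the other pairs. The part that the channels play in the values of FKS3 and SMI1 was not tested beyond this term.

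With the channel term in the model the means stay as they are by construction and their errors shrink. FKS1 then had an SE of 0.10 and GSC2 of 0.15. The limma unadjusted p fell from 0.0048 to 0.00099 for FKS1 but rose from 0.013 to 0.015 for GSC2. Neither passed over all genes (limma adjusted p = 0.22 and 0.34), and in that model 0% of genes passed above 0. Both genes were above 0 within either assignment, which FKS3 and SMI1 were not.

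**Figure D3:**
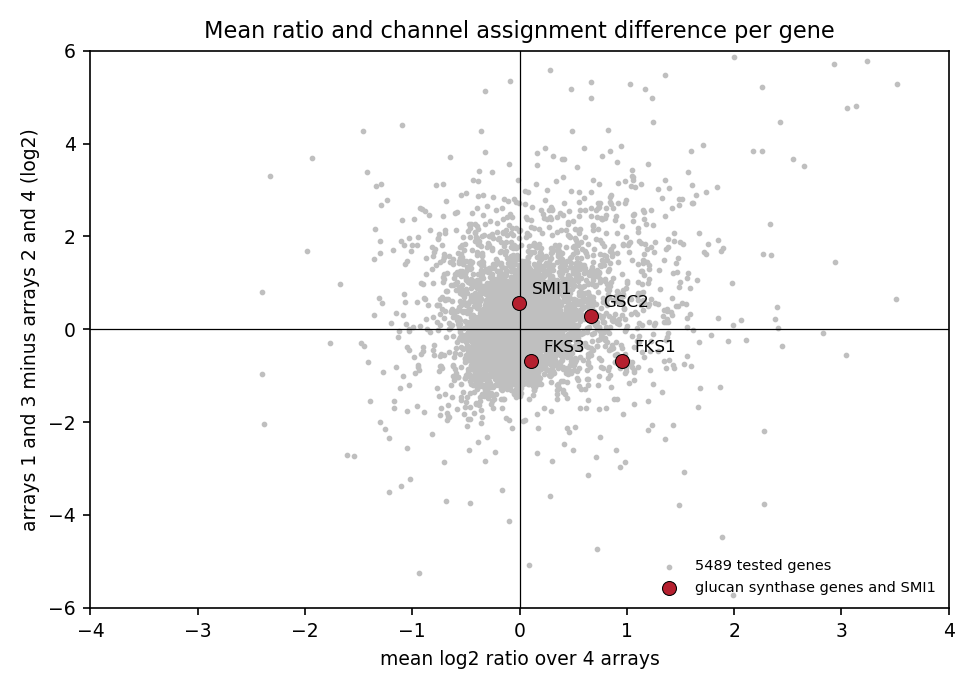
Mean log2 ratio over 4 arrays (horizontal) against the difference between arrays 1 and 3 and arrays 2 and 4 (vertical, log2), for 5489 tested genes in grey and the 4 members in red. FKS1 and GSC2 lie to the right of 0, FKS1 and FKS3 share a vertical position near -0.68, and 16 genes fall outside the drawn range.

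Regulators of the enzyme were mixed. Of the 11 genes of the Rho1 switch (the GTPase, its activators, its inhibitors and the enzyme that lipidates it), none passed over all genes in either direction, and the list median was 0.03. RHO1 itself, singled out after its values were seen because it is the regulatory subunit, was at 0.24, 0.62, 0.28 and 0.60 on arrays 1 to 4. It was higher on arrays 2 and 4, as FKS1 was, at less than the size of FKS1. Its mean was 0.43 ± 0.15 (limma SE, n = 4, limma adjusted p = 0.62). No overlap between the 2 assignments was also seen in 57.7% of the 5124 genes with 4 values. The genes with the smallest p in the list were LRG1 at 0.97 ± 0.27 and SAC7 at 1.16 ± 0.35, measured on 3 arrays, which both encode proteins that turn Rho1 off (limma adjusted p = 0.56 and 0.61). The other genes of this kind in the list, BAG7 and BEM2, named after their values were seen, were at -0.09 ± 0.14 and 0.03 ± 0.17. The exchange factor genes ROM1, ROM2 and TUS1, which turn Rho1 on and were singled out with their values known, were at -0.09 ± 0.14, 0.26 ± 0.21 and -0.29 ± 0.15.

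No gene in the lists of the signalling routes known to act on GSC2 was called either. At this threshold 5 of 5489 tested genes (0.0911%) were called, so no call in a list this short says little about it. These lists hold RNA ratios of the routes' components, and the activity of the routes was not tested. Of the 14 genes of the sensors and the Pkc1-Slt2 route, 13 were tested, all but SLT2. None passed, and the median was 0.08. By array the list median was 0.43, -0.29, 0.48 and 0.16 on arrays 1 to 4, so array 2 lay on the other side of 0. KDX1, which encodes a paralog of Slt2, stood at 1.99 ± 0.19 (limma SE, n = 4, limma adjusted p = 0.090). KDX1 is also one of the markers that set the direction, so its sign here is not independent of that reading. RLM1, the transcription factor under Slt2, was at 1.15 ± 0.41 (limma adjusted p = 0.63), with -0.29 on array 2 against at least 1.17 on the other arrays. Calcineurin and its partners, a route that drives GSC2 through the factor Crz1, had a median of 0.13 over 6 genes and no call. CRZ1 itself, named after its values were seen, was at -3.05, 0.74, -1.60 and -1.12 on arrays 1 to 4, with a mean of -1.26 ± 0.62 (limma SE, n = 4, limma adjusted p = 0.69). Array 2 was above 0 and the other arrays below it. RCN1, a calcineurin regulator, was at 1.00, 1.90, 1.05 and 1.83, the same order of arrays by assignment as FKS1, with a mean of 1.44 ± 0.23 (limma adjusted p = 0.23). Arrays of the 2 assignments did not overlap in 57.7% of the genes with 4 values. CNA1, a catalytic subunit of calcineurin, was at -0.49 ± 0.17 and lay below 0 on all arrays (limma adjusted p = 0.62). The other catalytic subunit gene, CMP2, and the partner gene CMD1 were named after their values were seen. They were at 0.55 ± 0.29 and 0.43 ± 0.16 (limma SE, n = 4). In this list 3 genes lay above 0 in mean and 3 below.

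The 6 genes of UDP-glucose supply had a median of 0.17 and no call, with means from -0.36 to 0.41, the highest that of the phosphoglucomutase gene PGM2, named after its value was seen. The hexokinase gene HXK1 was at -0.36 ± 0.21 and PGM1, the other phosphoglucomutase gene, at 0.26 ± 0.15 (limma SE, n = 4, limma adjusted p = 0.71 each). Without array 2, where it was at -0.99, HXK1 had a mean of -0.15.

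Other wall polymer genes lay on both sides of the synthase. The median was 0.19 over the 10 tested genes of glucan elongation and linking, with the chitin-glucan linking gene CRH1 at 1.37 ± 0.19 and the glucan-modifying gene BGL2 at 0.80 ± 0.18 (limma SE, n = 4, limma adjusted p = 0.18 and 0.41). CRH1, like KDX1, is also one of the markers that set the direction. GAS1 was not analysed here. Beta-1,6-glucan genes had a median of 0.28 over 9, with KNH1 at 0.89 ± 0.21 and KRE6 at 0.66 ± 0.20 (limma adjusted p = 0.44 and 0.58). Chitin synthase genes and their partners had a median of 0.85 over 7, of which 5 were above 0 on all arrays, beside 9.54% of the genes with 4 values. CHS1, of chitin repair at cell separation, was at 1.36 ± 0.18, and SKT5 (also called CHS4), which activates the main chitin synthase, was at 1.10 ± 0.23 (limma adjusted p = 0.17 and 0.36). None of the members of these 3 lists passed over all genes, and only the markers that set the direction held called genes, NCW2 at 3.04 ± 0.18 and PST1 at 1.95 ± 0.14 (limma adjusted p = 0.036 and 0.045). Both of those calls were lost when any 1 array was left out (limma adjusted p from 0.17 to 0.47).

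**Figure D4:**
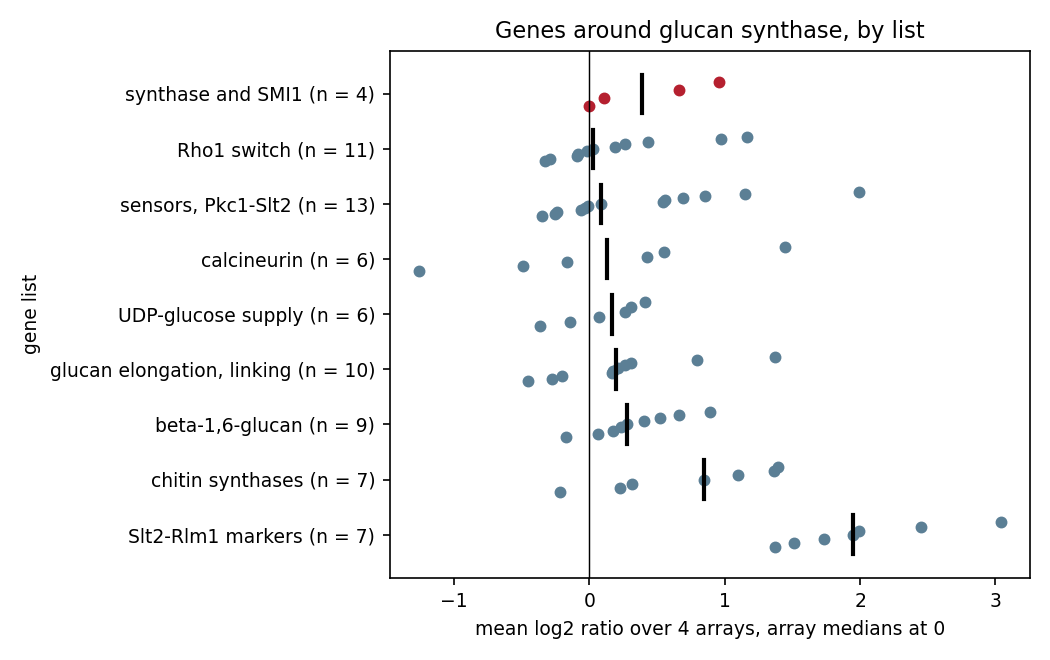
Mean log2 ratio over 4 arrays of each tested gene, by list, with the synthase genes and SMI1 in red and the black bar at the list median. KDX1 and CRH1 are drawn in their pathway lists and again among the markers that set the direction. The synthase median of 0.39 lies between that of the beta-1,6-glucan genes, 0.28, and that of the chitin synthase genes, 0.85, and the markers that set the direction lie highest, at 1.95.

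Genes with the most similar values were sought by root mean square distance over the 4 arrays, among 5123 other genes with 4 values. NFG1 was nearest to FKS1, at a distance of 0.08, with 0.56, 1.20, 0.50 and 1.28 on arrays 1 to 4. PDR5 and NUP85 followed at 0.14 and 0.17. Nearest to GSC2 were AIM33, AGE1 and MHP1, at distances of 0.14, 0.14 and 0.15. Nearest to SMI1 were CYC8, PSY3 and CHO2, at 0.06, 0.07 and 0.08. With 4 arrays, and with array assignment shared by all genes, these distances describe the values and no more.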

How the data were processed

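Log2 ratios were deposited for each spot of 4 arrays with 2 channels. That scale was read from the values, since no source used here names the scale, the ratio direction, the scanner steps, any background correction or the normalization within arrays. Deposited medians were 0.31, 0.02, -0.46 and 0.37, and 6.79%, 9.30%, 3.93% and 1.67% of the spots were blank on arrays 1 to 4. Symbols came from the platform's annotation, which is old and names 11138 spots, and locus tags and other names from RefSeq's yeast gene table. No build is named for the array, so no coordinates are printed.

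The median of each array was set to 0, and spots of a gene were averaged. Genes with at least 3 values (5489) entered limma 3.58.1 in R 4.3.3 (lmFit, eBayes, two-sided, Benjamini-Hochberg over all genes, threshold 0.05), alone or with a term for the channel of the treated RNA, and the script was tested on simulated data. Members were compared within arrays by exact sign flips. The number of arrays limits the precision. Named genes were the 4 members, the 2 smallest p in each list and the 3 nearest genes to FKS1, GSC2 and SMI1. Members, lists and this rule were chosen with earlier results of these data known. Alternatives were no centring, scaling, quantile normalization, the channel term, stricter and looser filters, single spots, robust eBayes and leaving out each array. Added after seeing the data were turning the sign of arrays 2 and 4, centring along runs of 400 spots, and each assignment alone.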

Additional observations from a re-analysis of the deposited data

Results flagged for a closer look

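FKS3 and SMI1 were picked out because their 2 arrays of one channel assignment lay on one side of 0 and the 2 of the other assignment on the other side. The same split was seen in 26.4% of the 5124 genes with 4 values. The difference, arrays 1 and 3 minus arrays 2 and 4, was -0.67 for FKS3 and 0.58 for SMI1, and neither passed over all genes (limma adjusted p = 0.28 and 0.31). In the hexokinase gene HXK1, array 2 stood apart at -0.99 from the other 3 arrays, which lay between -0.23 and -0.09, by Dixon's test. Chance picks out about 1 in 20 groups by that test. 20 genes were looked at, of which SAC7, measured on 3 arrays, could not be tested in this way.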

How the results depend on the processing

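FKS1 and GSC2 kept their sign and stayed short of the threshold in 13 alternatives (no centring, scaling, quantile normalization, the channel term, both filters, single spots, robust eBayes and each array left out), with means from 0.83 to 1.19 and from 0.54 to 0.79 (limma adjusted p from 0.22 to 0.95 and from 0.34 to 0.96). FKS3 and SMI1 lie near 0, and their sign was not stable. Leaving out 1 array at a time gave -0.041 to 0.23 for FKS3 and -0.12 to 0.12 for SMI1. SMI1 was at 0.055 without centring, 0.042 with its second spot alone and 0.095 when centred along the spot order. On arrays 1 and 3 alone FKS3 was at -0.23, SMI1 at 0.28 and FKS1 minus GSC2 at -0.19. If the ratios ran by channel, which turns the sign of arrays 2 and 4, FKS1 would be at -0.34, GSC2 at 0.15, FKS3 at -0.34, SMI1 at 0.29, the median of the 4 at -0.10 and FKS1 minus GSC2 at -0.49. The 7 tested markers would then change side of 0 between the assignments. The count of genes called above 0, 5 in the text, was 0 with scaling, quantile normalization, the channel term, the turned sign, centring along the spot order and without any 1 array (0 to 0), with 232 to 726 genes at a limma unadjusted p under 0.05; the cause was not tested. No alternative called a gene below 0, also with 232 to 726 at an unadjusted p under 0.05 in either direction. With 4 arrays the exact tests cannot go below 0.13, and with no signal strengths the reliability of single spots is unknown.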
